A study of Mus musculus with 16 samples.

Results

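The immunoglobulin and pre-B receptor genes are 8 mouse genes taken by name from the deposited gene tables: Igll1, Vpreb1 and Vpreb3 of the surrogate light chain and its relatives, Cd79a and Cd79b of the signalling pair, the constant-region genes Ighm and Igkc, and Jchain. All 8 were found among 29806 gene rows. They were compared in 16 RNA libraries from mouse bone marrow. The 4 groups of 4 libraries were HSC (haematopoietic stem cells) of WT mice, HSC of Jak2V617F mice, Fcgr-negative MPP3 (a myeloid-biased multipotent progenitor population, here sorted without Fc gamma receptors) of WT mice, and Fcgr-negative MPP3 of Jak2V617F mice. The WT mice are the controls named for the Jak2 line. Jak2V617F is the activating Jak2 mutation of human myeloproliferative neoplasms. How the allele was introduced, the ages of the mice and whether animals were pooled were not given in the sources used here. Per the labels, each replicate number is also a batch number, so that each batch holds 1 library of every group. The labels do not say that libraries of a group came from separate animals, so each p-value measures the spread between these libraries.

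In developing B cells, the immunoglobulin mu heavy chain, whose constant region Ighm encodes, is first displayed with a surrogate light chain made of VpreB and lambda 5 instead of a kappa or lambda light chain. Vpreb1 and its near copy Vpreb2 encode VpreB, and Igll1 encodes lambda 5. Vpreb3 encodes a related protein that binds newly made chains inside B lineage cells. The mu chain has no signalling tail of its own, and the signal is carried by CD79a and CD79b, which later serve the mature B cell receptor in the same way. Igkc encodes the constant region of the kappa light chain, which follows kappa rearrangement, and Jchain encodes the joining chain that links IgM and IgA multimers in antibody-secreting cells. The mu constant region can also be transcribed without a rearranged V segment, as a germline transcript, in progenitors that make no antibody.

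The libraries held 33108500 to 41230910 estimated counts on gene rows, with 14439 to 16522 genes detected. Levels are given as CPM, the count relative to the library total after scaling for composition. Differences were tested with edgeR's quasi-likelihood test over 14179 genes, with Benjamini-Hochberg adjustment and a threshold of 0.05, and are given as log2 fold changes with their standard errors. All 8 genes passed the filter on low counts, which asked for a minimum count in as many libraries as 1 group holds. Vpreb1 passed through the MPP3 libraries, since all 8 HSC libraries were at 0. Igll1, Cd79a and Igkc, at 0 in most HSC libraries, also passed through the MPP3 libraries. The counts of members higher in MPP3, in either genotype, thus include genes admitted through the group where they are high. The sorted populations differed in their marker genes. The summed level of 6 MPP3 genes, among them Mpo and Elane, was 8.17 to 34.4 CPM in HSC and 1952 to 4939 CPM in MPP3, and that of 5 HSC genes, among them Procr and Mecom, was 374 to 750 CPM in HSC and 206 to 341 CPM in MPP3. Transcripts of the receptor genes Fcgr2b and Fcgr3 were present in MPP3 at 8.07 to 39.2 and 1.87 to 9.29 CPM. A gene-level count does not show the Jak2 base change, so the genotype labels could not be checked from it. In RNA from many cells, fewer cells of a type and less RNA per cell cannot be told apart.

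In control mice the members apart from Cd79b were near 0 in HSC and higher on average in MPP3, where control replicate 1 had Jchain at 0 and Igkc at 0.550 CPM. In Jak2V617F mice the mean MPP3 level was lower for every member, without passing the adjusted test. Cd79b stood apart: it lay between 53.1 and 107 CPM over all 16 libraries. Per length, Cd79b made up 94.4% to 99.0% of the members' summed TPM, the per-length scale on which levels of different genes can be compared, in the 8 HSC libraries. Its share was 3.80% to 48.4% in control MPP3 and 43.2% to 69.3% in Jak2V617F MPP3.

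In control MPP3 the order by mean TPM was Igkc at 672 ± 867 (SD, n = 4), Ighm at 107 ± 53.8, Cd79b at 95.0 ± 12.6, Jchain at 46.5 ± 55.5, Vpreb3 at 33.5 ± 21.0, Igll1 at 28.6 ± 13.2, Vpreb1 at 27.0 ± 16.9 and Cd79a at 20.4 ± 9.59. The SD of Igkc and of Jchain exceeded the mean, and neighbours in this order did not differ beyond their spread. In Jak2V617F MPP3 the order was Cd79b at 70.2 ± 10.2, Ighm at 26.5 ± 11.6, Igkc at 6.48 ± 6.71, Igll1 at 6.38 ± 6.14, Vpreb3 at 6.02 ± 6.14, Cd79a at 4.22 ± 3.70, Vpreb1 at 4.04 ± 4.18 and Jchain at 0.234 ± 0.271. Cd79b stood above Ighm there in all 4 libraries, and the middle 5 genes overlapped. In HSC, Cd79b had a mean of 77.6 ± 14.0 TPM in control and 57.5 ± 3.32 TPM in Jak2V617F mice, and no other member had a mean above 0.867 TPM.

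**Figure D1:**
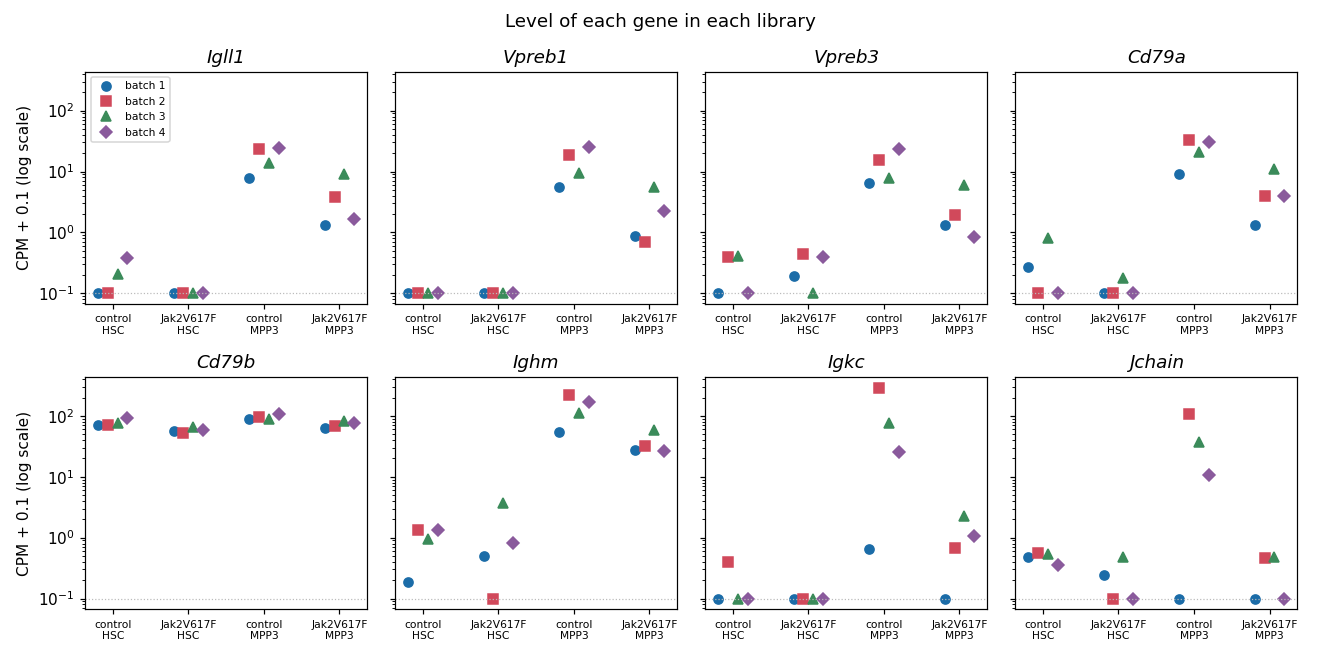
CPM of each of the 8 genes in each of the 16 libraries, plotted as CPM + 0.1 on a log axis, by group, with symbol and colour for the batch; the dotted line is 0 CPM. Vpreb1 lies at 0 in all 8 HSC libraries and at 5.47 to 24.8 CPM in control MPP3, Cd79b lies within 53.1 to 107 CPM throughout, and Igkc in control MPP3 runs from 0.550 to 291 CPM.

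Because Vpreb1, Igll1, Vpreb3 and Cd79a had the same pattern over the groups, the 300 bases around their RefSeq starts (250 before and 50 after, build GRCm38.p6) are shown for them, read 5′ to 3′ on the gene's strand. Of the 8 genes, 5 had a window in that table (these 4 and Jchain); Cd79b, Ighm and Igkc had no entry. The capitals mark matches, on either strand, to the octamer ATTTGCAT, the EBF core CCCNNGGG and the E-boxes CAGGTG and CAGCTG. The windows are Vpreb1 at chr16:16869206-16869505 (minus strand), Igll1 at chr16:16863936-16864235 (minus strand), Vpreb3 at chr10:75948050-75948349 (plus strand) and Cd79a at chr7:24897247-24897546 (plus strand). The RefSeq starts of Vpreb1, Vpreb3 and Cd79a lie inside the longer GENCODE gene bounds.
Vpreb1: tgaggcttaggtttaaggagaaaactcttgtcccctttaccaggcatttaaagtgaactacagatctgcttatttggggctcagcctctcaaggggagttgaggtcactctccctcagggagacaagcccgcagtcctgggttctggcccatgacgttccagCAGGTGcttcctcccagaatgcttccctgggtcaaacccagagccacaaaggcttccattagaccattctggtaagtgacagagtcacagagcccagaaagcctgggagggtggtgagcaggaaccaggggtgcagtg
Igll1: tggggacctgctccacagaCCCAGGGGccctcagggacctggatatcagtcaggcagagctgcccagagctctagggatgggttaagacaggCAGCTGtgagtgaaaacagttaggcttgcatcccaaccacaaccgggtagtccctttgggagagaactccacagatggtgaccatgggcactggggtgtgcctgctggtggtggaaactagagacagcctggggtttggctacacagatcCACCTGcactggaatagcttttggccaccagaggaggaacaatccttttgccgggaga
Vpreb3: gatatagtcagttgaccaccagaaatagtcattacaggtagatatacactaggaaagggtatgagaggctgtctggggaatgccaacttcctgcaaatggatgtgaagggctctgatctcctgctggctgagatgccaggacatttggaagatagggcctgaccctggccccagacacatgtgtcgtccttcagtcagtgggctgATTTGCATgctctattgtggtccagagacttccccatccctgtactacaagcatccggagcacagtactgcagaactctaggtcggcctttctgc
Cd79a: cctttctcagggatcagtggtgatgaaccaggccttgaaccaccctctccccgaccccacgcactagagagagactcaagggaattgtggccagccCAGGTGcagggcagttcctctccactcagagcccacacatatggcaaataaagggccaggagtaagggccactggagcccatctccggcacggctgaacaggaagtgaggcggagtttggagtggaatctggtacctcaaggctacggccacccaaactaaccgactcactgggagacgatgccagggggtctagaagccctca

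The E-box CAGGTG or its reverse complement was in 4 of the 5 windows, against 20.2% of all 32851 windows of the same length in the table. Its first base lay at -88 from the start in Vpreb1, at -8 in Igll1, at -154 in Cd79a and at 6 in Jchain, counting the start as 1 and the base before it as -1. The octamer ATTTGCAT was in the Vpreb3 window, at -45, and in 1.74% of all windows. The Igll1 window also held CAGCTG at -158 and the EBF core, as CCCAGGGG, at -231; these are in 16.3% and 13.7% of all windows. The marked matches do not overlap each other. They are matches of letters, and binding was not measured here. Sites that differ from these letters were not marked, so an absent mark does not show that a window lacks a site.

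In WT mice, 7 of the 8 genes were higher in MPP3 than in HSC, all but Cd79b, where 6.67% of all genes tested were called higher. Of these 7, Vpreb1, Igll1, Cd79a and Igkc had passed the filter through the MPP3 libraries. The groups did not overlap, with MPP3 higher, for 6 of the 8 genes (9.25% of all genes tested); the exceptions were Jchain and Cd79b. Vpreb1 lies on chromosome 16 at 16868403-16870843 on the minus strand (GRCm38). Its control MPP3 values were 5.47, 18.6, 9.50 and 24.8 CPM in replicates 1 to 4, and every HSC library was at 0. The control MPP3 mean was at least 184-fold higher than a floor of 3 counts per HSC library (adjusted p = 0.000155 by edgeR). Counts of 0 allow up to 0.0711 to 0.0901 CPM, depending on the library, and this limit covers counting error only.

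Vpreb1 shares 739 of 759 aligned transcript bases, 97.4%, with Vpreb2, so the division of reads between them is uncertain. Vpreb2 had 1.04, 1.20, 0.822 and 2.38 CPM in control MPP3 and was at 0 in all HSC libraries, like Vpreb1. Top3b, which encodes a topoisomerase, overlaps Vpreb1 on the opposite strand, and the use of strand in counting was not given in the sources used here. Top3b was at 11.4 to 38.9 CPM over the 16 libraries, HSC included, where Vpreb1 was at 0. Igll1 lies 4417 bases from Vpreb1, at 16860671-16863985 on the minus strand of chromosome 16. It had 7.84, 23.2, 13.7 and 23.9 CPM in control MPP3, and 0, 0, 0.104 and 0.275 CPM in control HSC. Every MPP3 library exceeded every HSC library, with a log2 fold change of 7.42 ± 1.04 (adjusted p = 0.000272 by edgeR).

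Vpreb3, on chromosome 10 at 75943057-75949657 on the plus strand, had 6.45, 15.6, 7.85 and 23.7 CPM in control MPP3 and at most 0.312 CPM in control HSC. Its log2 fold change was 6.43 ± 1.16 (adjusted p = 0.00122 by edgeR), and the pseudogene Gm16221, which overlaps it on the other strand, had 13 counts over all libraries. Cd79a, on chromosome 7 at 24897381-24902197 on the plus strand, had 9.15, 33.1, 20.6 and 30.7 CPM in control MPP3 and 0.166, 0, 0.703 and 0 CPM in control HSC. The groups were apart by a log2 fold change of 6.73 ± 1.07 (adjusted p = 0.000374 by edgeR). In all 4 of these genes, replicates 2 and 4 of control MPP3 were the highest and replicate 1 the lowest.

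Cd79b, on chromosome 11 at 106311341-106314762 on the minus strand, had 87.8, 97.5, 89.5 and 107 CPM in control MPP3 and 71.8, 71.6, 76.2 and 93.9 CPM in control HSC. MPP3 was the higher library in each of the 4 batches, but the groups overlapped through HSC replicate 4. The log2 fold change of 0.28 ± 0.12 did not pass the test (adjusted p = 0.134 by edgeR), so that the CD79 pair was unequal: Cd79a was near 0 in HSC, where Cd79b was already near its MPP3 level.

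Ighm, on chromosome 12 at 113418558-113422730 on the minus strand, had 54.8, 217, 113 and 168 CPM in control MPP3 and 0.0832, 1.21, 0.833 and 1.22 CPM in control HSC. The groups were far apart, with a log2 fold change of 7.35 ± 0.95 (adjusted p = 0.000120 by edgeR). Igkc, on chromosome 6 at 70726435-70726966 on the plus strand, had 0.550, 291, 77.4 and 25.1 CPM in control MPP3; in control HSC it had 0.296 CPM in replicate 2 and 0 in the others. Its log2 fold change was 10.34 ± 2.11 (adjusted p = 0.00921 by edgeR), and without control HSC replicate 2 the adjusted p was 0.0588. Gm30211, a long noncoding RNA gene that overlaps Igkc on the same strand, had no row, so its reads could count for Igkc. Jchain, on chromosome 5 at 88519809-88527891 on the minus strand, had 0, 106, 37.2 and 10.7 CPM in control MPP3 and 0.250 to 0.458 CPM in control HSC. Its groups overlapped because control MPP3 replicate 1 was at 0, and the log2 fold change was 6.63 ± 1.55 (adjusted p = 0.0102 by edgeR).

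In the Jak2V617F mice, 5 of the 8 genes were higher in MPP3 than in HSC, with 3.69% of all genes tested called higher, and the same 5 had groups without overlap (6.14% of all genes tested). Of these 5, Vpreb1, Igll1 and Cd79a had passed the filter through the MPP3 libraries. Ighm had 27.2, 32.4, 57.8 and 26.7 CPM in Jak2V617F MPP3 and 0.403, 0, 3.65 and 0.730 CPM in Jak2V617F HSC. Every MPP3 library was above every HSC library, with a log2 fold change of 4.92 ± 0.86 (adjusted p = 0.00189 by edgeR). Cd79a had a log2 fold change of 7.78 ± 1.28 (adjusted p = 0.000681 by edgeR), with HSC at 0 in 3 of 4 libraries; without Jak2V617F HSC replicate 3, the HSC library with counts, the fitted value was 10.55. Vpreb1 and Igll1 were at 0 in all 4 Jak2V617F HSC libraries, and their MPP3 means were at least 29.0-fold and at least 50.7-fold higher than the floor of 3 counts per library (adjusted p = 0.00104 and 0.000405 by edgeR). Vpreb3 was higher by 3.75 ± 1.05 on the log2 scale (adjusted p = 0.0327 by edgeR). With the batch as a block its adjusted p was 0.0537, and it was above the threshold in 7 of the 16 fits that left out 1 library (0.0501 to 0.115).

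The other 3 genes did not pass in Jak2V617F mice. Igkc was at 0 in every Jak2V617F HSC library and at 0, 0.586, 2.17 and 0.945 CPM in MPP3. Its MPP3 mean was at least 12.0-fold higher than the floor, and the groups overlapped through MPP3 replicate 1 (adjusted p = 0.244 by edgeR; 0.00892 with the batch as a block; 0.0207 with DESeq2). Jchain had 0, 0.363, 0.384 and 0 CPM in MPP3 and 0.142, 0, 0.373 and 0 CPM in HSC, with a log2 fold change of 0.54 ± 1.72 (adjusted p = 0.926 by edgeR). These were 0, 13, 15 and 0 counts in Jak2V617F MPP3 and 6, 0, 14 and 0 counts in Jak2V617F HSC. Cd79b differed by 0.31 ± 0.12 (adjusted p = 0.142 by edgeR).

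Between Jak2V617F and control MPP3, all 8 fitted log2 fold changes were negative and none passed the adjusted threshold with edgeR (0 of 8 called; 0.0494% of all genes tested were called lower and 0.0635% changed). Unadjusted, all 8 had p under 0.05, as had 1960 of the 14179 genes. With the batch as a block, 2 of the 8, Igkc and Jchain, were called lower, where 0.402% of all genes were, and DESeq2 also called 2, Jchain and Vpreb1. The median log2 fold change of the 8 genes was -2.34, beside -0.021 over all genes tested. The groups did not overlap, with the mutant lower, for Cd79b, Vpreb1 and Vpreb3, 3 of 8 genes (3.48% of all genes tested). Within batches the mutant library was the lower in 4 of 4 batches for 7 of 8 genes (10.8% of all genes tested); for Jchain it was lower in 3 batches and both libraries of batch 1 were at 0.

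Among the surrogate light chain genes, Vpreb1 had 0.776, 0.586, 5.42 and 2.15 CPM in Jak2V617F MPP3. The highest mutant library, replicate 3, lay just under the lowest control at 5.47 CPM. The log2 fold change was -2.70 ± 0.76 (adjusted p = 0.157 by edgeR; 0.0187 with DESeq2; 0.0482 by edgeR without Jak2V617F MPP3 replicate 3). Igll1 had 1.21, 3.77, 9.08 and 1.58 CPM in the mutant, where replicate 3 exceeded the lowest control library, with a log2 fold change of -2.13 ± 0.78 (adjusted p = 0.238 by edgeR). Vpreb3 had 1.24, 1.84, 6.01 and 0.741 CPM in the mutant, all under the lowest control at 6.45 CPM, with a log2 fold change of -2.44 ± 0.94 (adjusted p = 0.251 by edgeR).

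Of the signalling pair, Cd79a had 1.21, 3.91, 10.9 and 3.81 CPM in Jak2V617F MPP3, and replicate 3 exceeded control replicate 1. Its log2 fold change was -2.24 ± 0.84 (adjusted p = 0.238 by edgeR). Cd79b had 63.8, 66.9, 82.4 and 76.7 CPM, every value under the lowest control at 87.8 CPM. The difference was small and its spread narrow, -0.40 ± 0.12 on the log2 scale (adjusted p = 0.156 by edgeR).

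Of the constant regions, Ighm had a mean of 36.0 ± 14.7 CPM in Jak2V617F MPP3 and 138 ± 69.8 CPM in control MPP3 (SD, n = 4 each). The mutant replicate 3, at 57.8 CPM, exceeded the lowest control, at 54.8 CPM, and the log2 fold change was -1.94 ± 0.72 (adjusted p = 0.241 by edgeR). Igkc had at most 2.17 CPM in the mutant; control replicate 1, at 0.550 CPM, lay among the mutant values and the other 3 controls lay above them all. Its log2 fold change was -6.71 ± 1.67 (adjusted p = 0.143 by edgeR), and with the batch as a block it was -6.00 (adjusted p = 0.0208). Jchain was at or under 0.384 CPM in every mutant library. Its log2 fold change was -7.65 ± 1.65 (adjusted p = 0.0841 by edgeR), which became -7.40 with the batch as a block (adjusted p = 0.0471); DESeq2 gave an adjusted p of 0.00638. Without control MPP3 replicate 1, the control at 0, the edgeR adjusted p for Jchain was 0.0119.

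**Figure D2:**
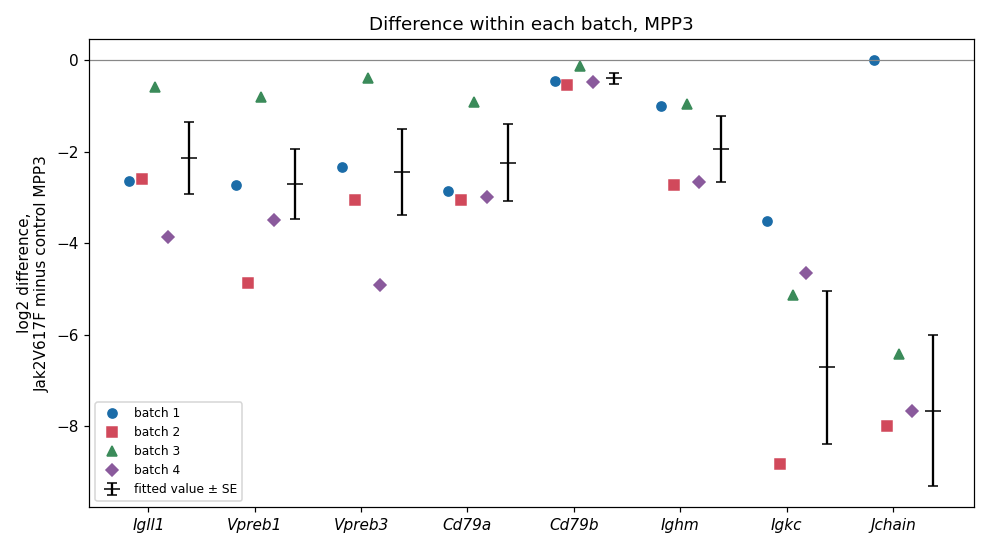
Log2 difference of Jak2V617F minus control MPP3 within each of the 4 batches (symbols) and the fitted log2 fold change with its SE (black) for each gene. The symbols of batch 3 lie nearest to 0 for Igll1, Vpreb1, Vpreb3, Cd79a, Cd79b and Ighm, from -0.12 in Cd79b to -0.97 in Ighm; Jchain is at 0 in batch 1, where both libraries had no count.

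The size of the difference varied by batch. In batch 3 the log2 difference was -0.59 for Igll1, -0.80 for Vpreb1, -0.38 for Vpreb3, -0.92 for Cd79a, -0.12 for Cd79b and -0.97 for Ighm, the smallest of the 4 batches in each of these genes. In the other 3 batches it ran from -2.61 to -3.87 for Igll1, from -2.74 to -4.87 for Vpreb1, from -2.34 to -4.90 for Vpreb3 and from -2.87 to -3.06 for Cd79a. For Cd79b it ran from -0.46 to -0.54 there. For Ighm it was -1.01, -2.74 and -2.65 in batches 1, 2 and 4, so that batch 1 was close to batch 3. Igkc did not share this order, with -3.51, -8.83, -5.12 and -4.65 in batches 1 to 4. Summed gene lists differed in where Jak2V617F MPP3 replicate 3 stood in its group. It was highest for the lymphoid progenitor, V(D)J recombination and B lineage transcription factor genes, at 340, 314 and 642 CPM. It was also highest for the B cell surface, T cell and HSC genes, at 146, 76.9 and 280 CPM. The MPP3, plasma cell and pre-B receptor signalling genes were lowest there, at 1952, 96.7 and 1043 CPM. The summed neutrophil genes were highest of the group there, at 210 CPM, the erythroid genes were similar in replicates 3 and 4, at 287 and 281 CPM, and the NK cell genes were lowest in replicate 3, at 1.05 CPM. Of single genes, picked after their values were seen, Car1, a carbonic anhydrase gene of erythroid progenitors, was at 6.01, 6.39, 153 and 42.4 CPM and Ngp, a neutrophil granule gene, at 1.01, 7.20, 118 and 2.35 CPM in replicates 1 to 4. Without that library, 209 genes in place of 9 were called between mutant and control MPP3, among them Vpreb1 as the only member.

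Between Jak2V617F and control HSC, Cd79b was the only member called by edgeR, lower in the mutant (2.74% of all genes tested were called lower and 7.3% changed). It had 55.5, 53.1, 66.5 and 59.1 CPM in Jak2V617F HSC, all under the lowest control HSC library at 71.6 CPM; 7.6% of all genes had groups without overlap in this direction. The log2 fold change was -0.42 ± 0.12 (adjusted p = 0.0414 by edgeR; 0.0167 with the batch as a block). The call was lost in 13 of the 16 fits that left out 1 library, where the log2 fold change stayed between -0.45 and -0.32 and the adjusted p of the lost calls was 0.0502 to 0.137. It was also lost without a filter on low counts (adjusted p = 0.0787), in a fit on the HSC libraries alone (0.0885) and without Jak2V617F HSC replicates 1 and 4 together (0.258). DESeq2 called Cd79b (adjusted p = 0.0163) and also Igll1 (adjusted p = 0.0121), which had 0, 0, 0.104 and 0.275 CPM in control HSC and 0 in every Jak2V617F HSC library. The 7 genes other than Cd79b had means of 1.20 CPM or less in both HSC groups. Ighm, at 0.838 ± 0.535 CPM in control and 1.20 ± 1.66 CPM in Jak2V617F HSC, had a log2 fold change of 0.49 ± 0.88 (adjusted p = 0.83 by edgeR), which was -1.07 without Jak2V617F HSC replicate 3.

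Whether the Jak2V617F effect differed between the populations was tested directly, and with edgeR none of the 8 genes passed (0 of 8; 0.0423% of all genes tested passed). Unadjusted, Jchain and Ighm, 2 of the 8, were under 0.05, and DESeq2 called 0 members too. For Cd79b the difference between the effects was 0.02 ± 0.17 on the log2 scale (adjusted p = 1.00 by edgeR). The fitted values for Cd79b were -0.42 in HSC, which passed the threshold, and -0.40 in MPP3, which did not. For genes at 0 in all HSC libraries this difference is not defined by the data.

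The light-chain and antibody-secretion genes varied widely between the control MPP3 libraries. Igkc per Ighm, on the TPM scale, was 0.0927, 11.9, 6.35 and 1.37 in control replicates 1 to 4, and at most 0.362 in Jak2V617F MPP3. Igha, the constant region of IgA, did not pass the filter on low counts, with 11523, 5196 and 5 counts in control MPP3 replicates 2 to 4 and 237 in Jak2V617F MPP3 replicate 3. It had 0, 346, 138 and 0.123 CPM in control MPP3 and 6.06 CPM in Jak2V617F MPP3 replicate 3. Control replicates 2 and 3 thus held Igkc, Jchain and Igha, replicate 4 held Igkc and Jchain with 5 counts of Igha, and replicate 1 held almost none of the 3 while its Ighm was 54.8 CPM. A test for any difference between the 4 replicate numbers over all groups called 0 of the 8 genes and 60 genes in all (0.423% of those tested); Igkc was nearest (F = 16.6, edgeR adjusted p = 0.0543) and the other 7 had adjusted p from 0.405 to 0.744. Unadjusted, 1798 genes were under 0.05, and Igkc was the member among them.

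The tables also list 215 V segment genes of the antibody loci, which were not members. Heavy-chain V segments summed to 52, 1748, 1006 and 320 counts in control MPP3, to 31, 23, 60 and 18 in Jak2V617F MPP3, and to at most 21 in any HSC library. Kappa V segments summed to 27, 5674, 1590 and 683 counts in control MPP3 to 12, 15, 54 and 34 in Jak2V617F MPP3, and to 7 to 51 in the HSC libraries. Of the mutant MPP3 counts, 12, 9, 15 and 26 were of 1 segment, Igkv2-137, which had 2 to 51 counts in each of the 16 libraries. The same control libraries, replicates 2, 3 and 4, were high for V segments and for Igkc. Heavy V counts per 100 counts of Ighm and Igha were 2.74, 9.33, 10.6 and 4.67 in control MPP3 and 1.72 to 3.28 in Jak2V617F MPP3.

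Of the 215 V segments, 42 had at least 10 counts in some library. Of these 42, 29 reached that in 1 library only and 13 in 2 or more. Within control MPP3, 30 reached it in 1 library, 11 in at least 2 and 3 in at least 3. Igkv15-103 had 123, 26 and 626 counts and Ighv7-1 had 69, 28 and 237 counts in replicates 2, 3 and 4. In control MPP3 replicate 2 the leading segments were Ighv1-64 with 299 counts, 17.1% of the heavy V counts, and Igkv8-27 with 1050 counts, 18.5% of the kappa V counts. In replicate 3 they were Ighv9-3 with 536 counts, 53.3%, and Igkv9-123 with 752 counts, 47.3%. In replicate 4 they were Ighv7-1 with 237 counts, 74.1%, and Igkv15-103 with 626 counts, 91.7%. Replicate 2 had 17 heavy and 16 kappa segments at 10 counts or more, replicate 3 had 6 and 6, replicate 4 had 3 and 2, and replicate 1 had 0 and 2. V segments are close relatives of each other, so reads may be assigned to a neighbour.

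**Figure D3:**
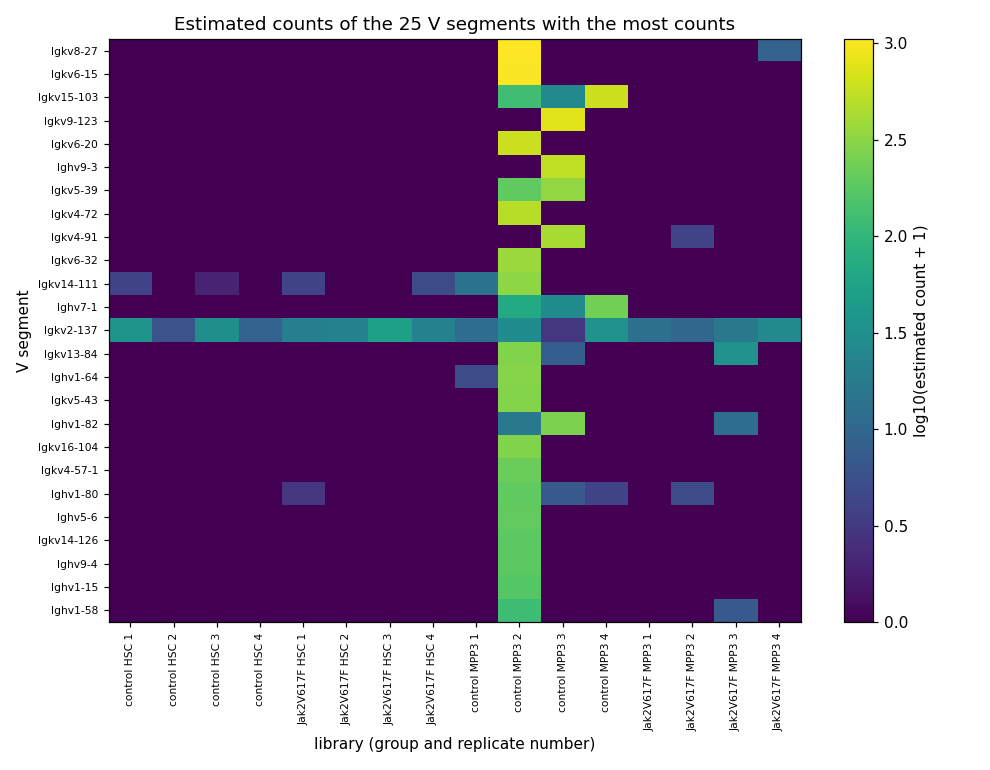
Estimated counts, as log10(count + 1), of the 25 V segments with the most counts (rows) in the 16 libraries (columns, by group and replicate number). Bright cells fall in control MPP3 replicates 2, 3 and 4, mostly in 1 library per segment, such as Igkv8-27 with 1050 counts in replicate 2 and Ighv9-3 with 536 counts in replicate 3.

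Of 12 genes of pre-B receptor signalling, 10 were tested. In control mice Syk, the kinase that binds phosphorylated CD79 tails, was among those called higher in MPP3 than in HSC. Its level was 126 ± 21.9 CPM (SD, n = 4) in control HSC, and it was higher by 0.41 ± 0.12 on the log2 scale (adjusted p = 0.0328 by edgeR). The Syk call was lost in 6 of the 16 fits that left out 1 library (adjusted p = 0.0547 to 0.105 by edgeR) and in a fit on the groups compared alone. Blnk, the adaptor downstream of Syk, had a log2 fold change of 2.91 ± 1.44 and did not pass (adjusted p = 0.212 by edgeR). Ptpn6, Plcg2 and Btk, signalling genes that other blood cells also use, were already present in control HSC, at mean TPM of 195 ± 11.2, 70.0 ± 2.06 and 63.9 ± 7.40 (SD, n = 4).

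Of 15 B lineage transcription factor genes, 12 were tested, and in control mice 5 were higher in MPP3 and 1, Bcl11a, was lower. Of these, the call for Lef1 was lost in 11 of the 16 fits that left out 1 library (adjusted p = 0.0540 to 0.120 by edgeR), with the batch as a block, without a filter on low counts and without Jak2V617F HSC replicates 1 and 4 together, and that for Bcl11a in 4 of the 16 (0.0533 to 0.0669). Ebf1, the early B cell factor, had 7.29, 25.8, 9.29 and 41.1 CPM in control MPP3 and at most 0.566 CPM in control HSC (log2 fold change 6.49 ± 1.20, edgeR adjusted p = 0.00231). Pax5, the factor that fixes the B cell fate, was at 0 in all HSC libraries and in 6 of the 8 MPP3 libraries, with 1.32 CPM in control MPP3 replicate 4 and 0.977 CPM in Jak2V617F replicate 2. Of 10 V(D)J recombination genes, 4 were higher in control MPP3: Rag1 and Rag2 of the recombinase, Dntt, which adds bases at junctions, and Xrcc6. The call for Xrcc6 was lost in 8 of the 16 fits that left out 1 library (adjusted p = 0.0506 to 0.140 by edgeR) and in a fit on the groups compared alone, and that for Rag2 in 1 (0.0523, without control HSC replicate 2). Dntt had 66.5, 115, 85.8 and 70.7 CPM in control MPP3 (log2 fold change 8.11 ± 0.99, edgeR adjusted p = 5.31e-05), and Rag1 had 0, 2.22, 1.91 and 4.41 CPM (adjusted p = 0.0226 by edgeR, or 0.0657 with the batch as a block). Of 8 lymphoid progenitor genes, 7 were higher in control MPP3, among them Flt3, at 2.89 ± 0.17 on the log2 scale (adjusted p = 1.13e-08 by edgeR). Of all genes tested, 6.67% were called higher in this comparison. Il7r, Ly6d, Rag1 and Rag2 were at 0 in all control HSC libraries and passed the filter through the MPP3 libraries. Mzb1, Slamf7 and Trbc1 of the lists below did so too. The list counts thus include genes admitted through the group where they are high.

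Between Jak2V617F and control MPP3, no gene of these lists was called. All 12 tested transcription factor genes had negative log2 fold changes, with a median of -0.43, and 7 of 8 lymphoid progenitor genes had negative values, with a median of -0.86, beside -0.021 over all genes. The pre-B receptor signalling and V(D)J recombination genes had medians of -0.014 and -0.19, and the B cell surface genes -0.88. Lists of other lineages were also negative, with medians of -1.41 for neutrophil, -1.22 for erythroid and -1.86 for NK cell genes. The median of the MPP3 genes was 0.13. Negative medians were thus not particular to the B lineage lists. Ebf1 had 2.24, 0.838, 11.8 and 4.57 CPM in the mutant, with replicate 3 again the highest of its group and above 2 control libraries (log2 fold change -2.10 ± 0.95, edgeR adjusted p = 0.349). Flt3, a growth factor receptor gene of early progenitors, had 129, 124, 190 and 124 CPM in the mutant and 153 to 232 CPM in the controls (log2 fold change -0.49 ± 0.16, edgeR adjusted p = 0.187). The B cell surface list had 10 of 12 genes tested, of which Cd72 was among those higher in control MPP3 than in HSC, and its mature B cell gene Ms4a1 was at or under 1.32 CPM in every library.

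**Figure D4:**
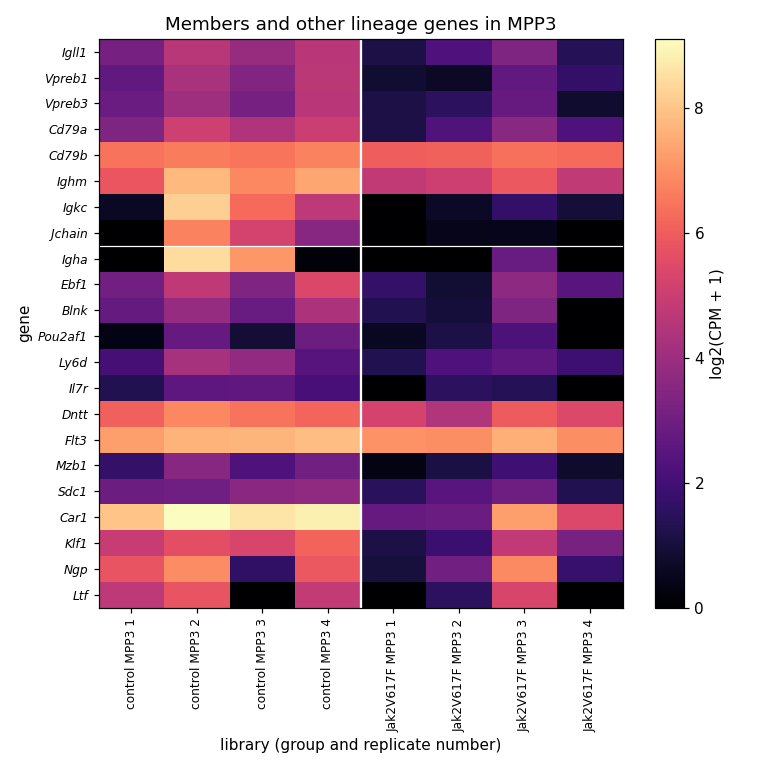
Level, as log2(CPM + 1), of the 8 genes (above the thin line) and of other lineage genes (below it) in the 8 MPP3 libraries, controls left of the white line and Jak2V617F right of it. Igkc, Jchain and Igha are dark in control replicate 1, Jak2V617F replicate 3 is the brightest mutant column for Igll1, Vpreb1, Cd79a, Ebf1, Car1 and Ngp, and Cd79b is similar in all columns.

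All 10 plasma cell genes were found. Their summed level was 107 to 127 CPM in control and 96.7 to 117 CPM in Jak2V617F MPP3, and none was called between them. In HSC, where Igkc was at or near 0, the sum was 136 to 157 CPM in control and 117 to 142 CPM in Jak2V617F mice. Txndc5 and Creld2 had the highest means of the list in control MPP3, at 31.0 and 30.2 CPM. The sum therefore does not measure plasma cells. In control mice, of the 9 tested, Mzb1 and Slamf7 were higher in MPP3 than in HSC (adjusted p = 0.000286 and 0.0202 by edgeR). Fkbp11 and Xbp1 were lower. The call for Slamf7 was lost with the batch as a block. That for Xbp1 was lost in 6 of the 16 fits that left out 1 library and without a filter on low counts. Mzb1, a chaperone gene of antibody-secreting cells, had 2.23, 10.7, 3.74 and 7.28 CPM in control MPP3 and 0.259, 1.20, 2.81 and 0.690 CPM in the mutant. Tnfrsf17, the BCMA receptor gene of plasma cells, had 0, 0.150, 0 and 0.147 CPM in control MPP3 and was at 0 in all 4 mutant libraries. Sdc1 had 6.60 to 12.2 CPM in control and 1.48 to 6.80 CPM in Jak2V617F MPP3, and was also present in HSC at 5.27 to 19.1 CPM.

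The 10 plasmacytoid dendritic cell genes summed to 252 to 326 CPM in control and 230 to 256 CPM in Jak2V617F MPP3. They summed to 212 to 238 CPM in control HSC and 189 to 244 CPM in Jak2V617F HSC. Tcf4 and Bst2 had the highest means in control HSC, at 146 and 74.6 CPM, so the sum does not measure these cells. Of the 7 tested, 3 were higher in control MPP3 than in HSC: Irf8, Ly6d and Cox6a2, the last at a mean of 0.569 CPM. Their defining marker Siglech was at 0 in all mutant and 1 control MPP3 library and at most 1.28 CPM. The 12 T cell genes summed to 73.8 to 120 CPM in control and 48.4 to 76.9 CPM in the mutant, with Cd3e at 0 in every control MPP3 library and Trac at 0 in all 8. Of its 9 genes tested, Trbc1, Trbc2 and Lck were higher in control MPP3 than in HSC. Trbc1, a constant region of the T cell receptor beta chain, had 15.2, 22.9, 21.0 and 22.4 CPM in control MPP3 and was at 0 in every HSC library (adjusted p = 8.79e-07 by edgeR). The 8 erythroid genes summed to 437 to 866 CPM in control and 90.3 to 287 CPM in Jak2V617F MPP3, without overlap, the same direction as the members. The 8 neutrophil genes summed to 122, 295, 5.28 and 119 CPM in control MPP3 and to 4.83, 14.0, 210 and 4.04 CPM in the mutant. The 7 NK cell genes summed to 4.29 to 16.3 CPM in control and 1.05 to 5.58 CPM in the mutant, and the 8 macrophage and dendritic cell genes to 127 to 287 CPM and 165 to 640 CPM. The part of these cells in the members' levels was not tested.

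Over the 16 libraries, the genes with the highest Pearson r of log2 CPM were Flt3, Pan3 and Vpreb2 for Igll1 (0.973, 0.972 and 0.971), Vpreb2, Bcl11b and Flt3 for Vpreb1 (0.982, 0.971 and 0.971), and Vpreb2, Arpp21 and Flt3 for Vpreb3 (0.931, 0.928 and 0.917). For Cd79a they were Vpreb2, Mgat1 and Ly6d (0.954, 0.953 and 0.948), and for Ighm they were Elane, S1pr3 and Cnn3 (0.964, 0.958 and 0.958). These values share the contrast of HSC and MPP3; within the 8 MPP3 libraries, r was 0.919 for Igll1 with Flt3, 0.873 for Vpreb1 with Vpreb2, and 0.886, 0.559 and 0.833 for Ighm with Elane, S1pr3 and Cnn3. Vpreb2 may also share reads with Vpreb1.

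Igkc and Jchain had other neighbours. Igkc was most like Mta3, Lck and Mzb1 (0.886, 0.878 and 0.877), and Jchain was most like Arid2, Chst3 and Slc25a38 (0.886, 0.849 and 0.824). Cd79b was most like Ermap, Rhd and Sytl1 (0.912, 0.908 and 0.908), with 0.959, 0.944 and 0.951 within MPP3; Ermap and Rhd encode proteins of the red cell membrane. None of the 3 genes nearest to Cd79b was among those nearest to Cd79a. Lists this short can differ even between genes of like pattern, so this does not measure how alike the pair is. These r values are descriptions over libraries that share batches and sorting.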

How the data were processed

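RNA was measured in 16 libraries, 4 per group. Per the labels' protocols, cDNA was made with an ultra-low-input kit and read in pairs. The submitters' processing notes list cutadapt 4.0, FastQC, HISAT2 and Salmon with GRCm38 (mm10); for the last 3, version, settings and strand use were not given in the sources used here. Gene names are Ensembl identifiers. The deposited tables hold Salmon's estimated counts per gene, not normalized, per the file headers, and these were rounded and tested. The authors' Salmon output includes TPM, a value per effective length, which was used only to set levels of different genes side by side.

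Each table had 31716 rows. The 1910 rows named by a transcript, 0.697% to 0.796% of the counts, none of them of a member gene, were left out. Symbols and positions came from GENCODE M21 (GRCm38), which left 79 gene rows without a symbol. Estimated counts were tested with edgeR 4.0.16 (R 4.3.3): low genes filtered by group, TMM scaling, robust quasi-likelihood fits over 4 groups with all 16 libraries, Benjamini-Hochberg adjustment over 14179 genes. CPM uses the TMM-scaled totals. The script was tested on simulated data. Alternatives were DESeq2 1.42.0, the batch as a block, RLE size factors, no filter, only the groups compared, transcript rows added to their genes, and each library left out; leaving out Jak2V617F HSC replicates 1 and 4 together was chosen after seeing the data.

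The members and gene lists were chosen with earlier results of these data known. Genes were named by rule: all members, called genes of each list and up to 3 of its highest, and the 3 genes with the highest r to each member; Car1, Ngp, Pax5, Siglech, Tnfrsf17, Ms4a1, Igha and the leading V segments were named after their values were seen where the rule did not reach them. Libraries of the same number share a batch per the labels; over 24 comparisons of their deviations from the group means, r ran from -0.032 to 0.16. Some results that the naming rule covers are not reported here.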

Additional observations from a re-analysis of the deposited data

How the results depend on the processing

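With DESeq2, 1668 genes changed between Jak2V617F and control in HSC (1035 by edgeR) and 386 in MPP3 (9 by edgeR), with 2 members called in each, and the difference of the effects was called for 78 genes in place of 6. With the batch as a block, 82 genes and 2 members were called in MPP3, and 1 gene for the difference. Apart from the values of Igkc, Jchain and Vpreb3 given in the report, the block changed no call of a member. Without a filter, 1 gene was called in MPP3, 0 members in HSC and 1 member between replicate numbers. In fits on the groups compared alone, 0 genes were called in MPP3 and 0 members in HSC. Without Jak2V617F HSC replicates 1 and 4 together, 266 genes and 0 members were called in HSC, 1 gene in MPP3, 776 genes in place of 1186 between MPP3 and HSC in the mutant, 0 for the difference and 21 in place of 60 between replicate numbers.

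Leaving out 1 library at a time gave 605 to 1412 genes and 0 to 1 members in HSC, 1 to 209 genes and 0 to 1 members in MPP3, 1 to 5 genes for the difference, and 19 to 65 genes with 0 to 1 members between replicate numbers. In control mice, 6 to 7 members were called between MPP3 and HSC, and in Jak2V617F mice 4 to 5. The Cd79b difference of the effects, 0.02 on the log2 scale, changed sign in 9 fits: it was -0.018 without a filter, -0.0077 without Jak2V617F HSC replicates 1 and 4 together, and between -0.075 and 0.082 with 1 library left out. Ighm in HSC lay between -1.07, without Jak2V617F HSC replicate 3, and 0.92 with 1 library left out. The cause was not tested. In HSC, 7 members had means of 1.20 CPM or less, where depth limits the precision of a fold change.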
